A study of Homo sapiens with 6 samples.

Results

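The MSX and DLX homeobox genes were chosen by name, as MSX1, MSX2 and DLX1 to DLX6, and all 8 are among the 56595 gene symbols of the table. RNA was sequenced from the H1 line, a human embryonic stem cell line, at day 8 of hematopoietic differentiation, in 2 WT libraries and in 4 libraries labelled MSX2-/-. The latter are clones 1# and 2# with 2 replicates each, which carried an integrated CRISPR/Cas9 vector with a guide to MSX2, were selected with puromycin and were each grown from 1 colony. The labels name CD31+ cells (PECAM1, an endothelial surface protein) for the MSX2-/- libraries alone, whereas the study describes WT as sorted in the same way. HAND1 overexpression appears in the labelled growth protocol but not in the study's methods, so it is not certain that every label describes these libraries. With 1 clone behind each pair of replicates, a difference from WT cannot be told apart from a difference between single colonies. The study's statement that analyses were repeated in independent experiments is a general one and gives a number of experiments other than the 2 replicates here, so it does not say whether these came from separate cultures, and the p-values measure the spread between these libraries only.

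MSX and DLX proteins are transcription factors that bind DNA through a homeodomain, a helical domain of the NKL class, at short AT-rich sites. MSX1 and MSX2 mostly repress transcription, are induced by BMP signaling, and are known for roles in limb, tooth, skull and neural crest development. DLX genes lie in 3 pairs in the genome (DLX1 with DLX2, DLX3 with DLX4, DLX5 with DLX6), mostly activate transcription, and are known for roles in forebrain interneurons, branchial arches, placenta and bone. MSX and DLX proteins can bind each other and oppose each other's activity.

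The guide to MSX2 is shown first because its site lies in the homeobox, the stretch that the 8 genes share. It matched the minus strand of exon 2 of 2 of MSX2 (GRCh38, chr5:174729204-174729223), and the cut would fall after 4 bases of the 180-base homeobox, in codon 143 of 267. The aligned stretch of each other homeobox is given below it, read on the same strand. In the guide line the capitals mark the PAM that follows the 20 bases of the guide, and in the other lines they mark bases that differ from the guide.
MSX2 guide: gggcgtgcgcggcttccgatTGG
MSX1 site: gggcgtCcgcggcttAcgGt
DLX1 site: AATcgtCcTGggTttAcgGA
DLX2 site: gATGgtgcgGggTttccgGA
DLX3 site: gATcgtAcgcggcttTcgGA
DLX4 site: gATGgtCcTcggcttGcgGA
DLX5 site: AATAgtCcTGggTttAcgaA
DLX6 site: AATGgtCcgAggcttccgaA
The MSX1 site (chr4:4862746-4862765) differed from the guide at 3 bases, G7C, C16A and A19G, numbered from its 5′ base as 1, with the guide's base first. The DLX sites differed at 6 (DLX3) to 10 (DLX1 and DLX5) bases. None of the 7 sites was followed by NGG, and over all annotated transcripts of each gene the site with NGG nearest to the guide had at least 6 mismatches (in DLX2). The alleles of the clones were not analysed here.

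The homeoboxes of MSX2 and MSX1 are printed next because these are the most alike members and because reads from near copies can be shared. In MSX2 (chr5:174729203-174729382, plus strand) the capitals mark the bases that the guide covers, and in MSX1 (chr4:4862745-4862924, plus strand) they mark the 32 bases that differ from MSX2.
MSX2 homeobox: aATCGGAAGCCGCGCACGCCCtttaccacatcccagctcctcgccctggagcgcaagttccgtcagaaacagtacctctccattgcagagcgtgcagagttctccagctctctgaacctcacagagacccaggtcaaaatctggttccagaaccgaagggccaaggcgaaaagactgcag
MSX1 homeobox: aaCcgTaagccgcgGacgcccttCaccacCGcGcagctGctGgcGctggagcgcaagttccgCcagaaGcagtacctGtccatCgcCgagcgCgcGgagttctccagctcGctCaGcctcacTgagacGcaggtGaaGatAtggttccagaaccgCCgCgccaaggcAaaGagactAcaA
MSX1 shared 82.2% of its homeobox bases and 58 of 60 encoded residues with MSX2. The DLX homeoboxes shared 57.2% (DLX4) to 65.6% (DLX3) of their bases and 31 to 36 of 60 residues with that of MSX2. In the MSX genes the homeobox lies within exon 2, and in all 6 DLX genes it is split between exons 2 and 3. The longest run of bases shared by transcripts of any pair of members was 28, between MSX1 and MSX2.

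The values are FPKM, fragments scaled to transcript length and to the number mapped, so that levels can be compared between genes. From what 1 fragment is worth in low values, the libraries held about 18300000 to 21600000 fragments each. Markers fixed as lists showed endothelial genes throughout, with PECAM1 at 186 to 258 FPKM and KDR, the VEGF receptor, at 434 to 779 FPKM. The pan-leukocyte gene PTPRC stayed at or under 0.115 FPKM, while the erythroid gene GYPB stood at 12.6 to 47.1 FPKM. NANOG and SOX2 stayed at or under 0.373 FPKM, while other genes of the pluripotency list were expressed, with LIN28A at 34.0 to 66.1 FPKM, DNMT3B at 29.2 to 37.2 FPKM and POU5F1 at 0.869 to 5.33 FPKM. In these bulk libraries fewer cells of a type and less RNA per cell cannot be told apart.

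The family was carried by the MSX genes. MSX1 had 53.0% to 90.9% of the summed FPKM of the 8 genes, and MSX2 5.90% to 43.1%. The 6 DLX genes together reached 0.770 to 2.82 FPKM, against 23.7 to 70.8 FPKM for the MSX genes. Only MSX1, MSX2, DLX1 and DLX2 averaged 0.5 FPKM or more and entered the test over 15875 genes. DLX1 and DLX2, whose WT means are 0.464 and 0.180 FPKM, passed this filter through the libraries labelled MSX2-/-. DLX3, DLX4, DLX5 and DLX6 had means of 0.0417 (DLX6) to 0.247 (DLX5) FPKM.

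**Figure D1:**
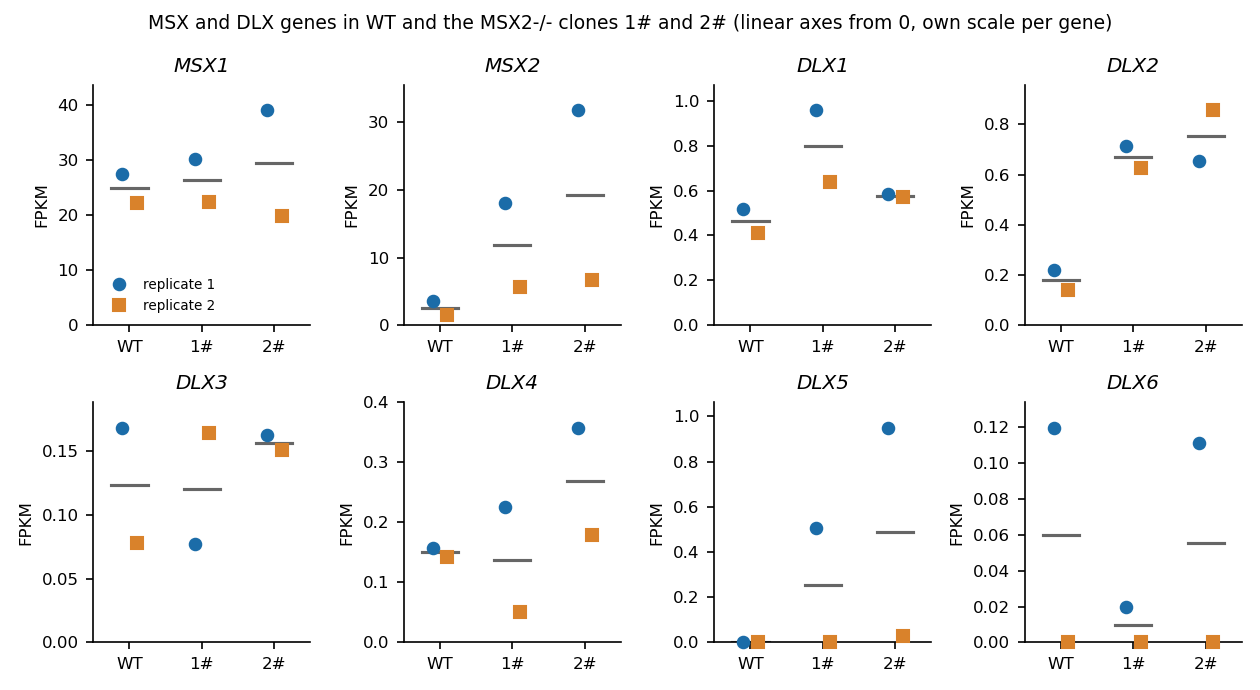
FPKM of each of the 8 genes in WT and in clones 1# and 2#, with circles for replicate 1, squares for replicate 2 and a line at the mean of the pair; axes are linear, start at 0 and have their own scale per gene. MSX2, DLX1 and DLX2 lie higher in all 4 clone libraries than in both WT libraries, MSX1 overlaps, and DLX3 to DLX6 stay under 1 FPKM.

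MSX2, the gene that was targeted, had more RNA in every library labelled MSX2-/- than in either WT library. It stood at 3.64 and 1.44 FPKM in replicates 1 and 2 of WT, at 18.0 and 5.62 FPKM in those of 1#, and at 31.8 and 6.69 FPKM in those of 2#. The groups did not overlap, and the 2 highest values were both replicate 1 of a clone. Within replicate 1 the level was 4.94-fold (1#) and 8.72-fold (2#) that of WT, and within replicate 2 it was 3.90-fold and 4.64-fold. In the fit of 4 against 2 libraries the difference was 1.99 on the scale of log2(FPKM + 1), with a standard error of 0.69, a 95% interval of 0.35 to 3.63 and a limma adjusted p of 0.309. With the replicate number as a block, which the check of pairing allows, the standard error was 0.28, the interval 1.30 to 2.67 and the adjusted p 0.0107. At an adjusted p under 0.05, 1.29% of all genes tested passed without the block and 9.92% with it and MSX2 was 1 of the 4 tested members to pass with it. The blocked call was lost without WT replicate 1 (1.55, adjusted p = 0.0903) and with no filter on low values (adjusted p = 0.0613). FPKM counts fragments along the whole transcript, so this level does not show whether the coding sequence was disrupted and is no check of the labels.

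MSX1, the closest relative of MSX2, was the most abundant member in all 6 libraries and gave no call for genotype. Its levels were 27.5 and 22.2 FPKM in WT, 30.2 and 22.3 FPKM in 1#, and 39.0 and 19.8 FPKM in 2#. Both the highest and the lowest value belong to clone 2#, so the groups overlap. The difference from WT was 0.12 on the log2 scale (standard error 0.28, 95% interval −0.55 to 0.78, limma adjusted p = 0.95), and the interval narrowed to −0.23 to 0.46 with the block (adjusted p = 0.649). The sign of this small difference turned without WT replicate 2 (−0.03) and without 2# replicate 1 (−0.06). The ratio of MSX1 to MSX2 FPKM was 7.55 and 15.4 in WT, 1.68 and 3.97 in 1#, and 1.23 and 2.96 in 2#. The ratio was thus lower in each clone library than in either WT library, with MSX1 still above MSX2 in 6 of 6.

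**Figure D2:**
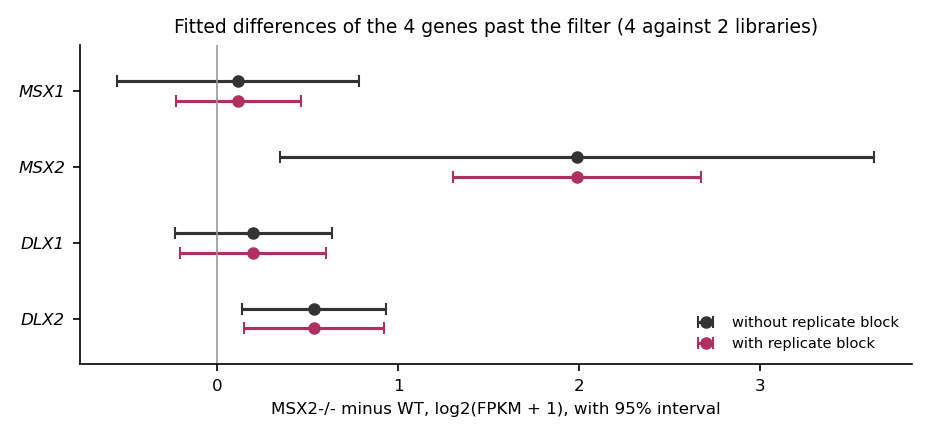
Fitted difference between the 4 MSX2-/- and the 2 WT libraries on the scale of log2(FPKM + 1) for the 4 members past the filter, with 95% intervals from limma without (black) and with (red) the replicate block. The interval of MSX2 runs from 0.35 to 3.63 without the block and from 1.30 to 2.67 with it, and those of MSX1 and DLX1 include 0 in both fits.

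DLX1 and DLX2 are neighbours on chromosome 2 and both are used in forebrain interneuron development. DLX2 had 0.220 and 0.141 FPKM in WT, 0.716 and 0.628 FPKM in 1#, and 0.654 and 0.856 FPKM in 2#. These values rest on about 7 to 10 fragments per WT library and about 28 to 45 per clone library. All 4 clone libraries lay above both WT libraries. The difference was 0.54 on the log2(FPKM + 1) scale, which understates changes of low genes (standard error 0.17, 95% interval 0.14 to 0.93, limma adjusted p = 0.253, and 0.0908 with the block). It did not pass the test in either fit, and it was 1.54 with a pseudocount of 0.1 in place of 1 (adjusted p = 0.213), where DLX1 gave 0.46 (adjusted p = 0.797). Its exact permutation p over the 15 splits of 2 against 4 libraries was 0.0667 (two-sided), the smallest this design can give. In the same permutation test the p was 0.133 for MSX2, 0.2 for DLX1 and 0.8 for MSX1.

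DLX1 had 0.520 and 0.409 FPKM in WT, 0.958 and 0.639 FPKM in 1#, and 0.584 and 0.570 FPKM in 2#. The highest WT and the lowest clone value are 0.520 and 0.570 FPKM, about 25 and 32 fragments, so the groups separate by a margin within counting error. The difference was 0.20 (standard error 0.18, 95% interval −0.23 to 0.63, limma adjusted p = 0.792, and 0.499 with the block). MSX2, DLX1 and DLX2 are thus 3 of 4 tested members with all 4 clone libraries above both WT libraries, a pattern that 12.1% of all genes tested showed. DLX1 and DLX2 were kept by the filter because of their clone libraries, so this count gives no support to a shared direction.

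DLX3 and DLX4, a pair on chromosome 17 with known roles in placenta and skin, were near the limit of detection. DLX3 lay between 0.0770 and 0.169 FPKM, about 4 to 8 fragments per library, with the highest value in WT replicate 1. DLX4 had 0.157 and 0.142 FPKM in WT, 0.224 and 0.0505 FPKM in 1#, and 0.357 and 0.179 FPKM in 2#, about 2 to 14 fragments. For both genes the WT values overlapped those of the clones. Fitted without the filter on low values, the differences were 0.02 for DLX3 (adjusted p = 0.93) and 0.06 for DLX4 (adjusted p = 0.888), from limma over 29654 genes, of which 0.422% passed.

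DLX5 and DLX6, the pair on chromosome 7 that acts in branchial arches and bone, were at or near 0 in most libraries. DLX5 was listed at 0 in both WT libraries and in 1# replicate 2, at 0.0286 FPKM in 2# replicate 2, at 0.505 FPKM in 1# replicate 1 and at 0.951 FPKM in 2# replicate 1. The 2 libraries with signal, about 16 and 27 fragments, are both replicate 1 of a clone, the same 2 libraries in which MSX2 was highest. A value of 0 allows up to 0.115 FPKM of DLX5, taking 3 fragments as the limit and counting error only. The difference of DLX5 was 0.40 in the fit without a filter (95% interval −0.33 to 1.13, limma adjusted p = 0.792), and its exact permutation p was 0.267. DLX6 was listed at 0 in replicate 2 of all groups and reached 0.120 (WT), 0.0199 (1#) and 0.111 (2#) FPKM in replicate 1, which is 5 fragments at most. DLX6 was not higher in the libraries with DLX5 signal than in WT replicate 1.

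Each clone was then set against WT, and the clones against each other, in a fit of 3 groups. MSX2 was higher than WT by 1.74 in 1# (95% interval −0.34 to 3.81) and by 2.24 in 2# (0.16 to 4.31) on the log2 scale, with limma adjusted p of 0.783 and 0.62. With the block the adjusted p were 0.0405 and 0.0223, and MSX2 was the 1 member past the threshold in each clone, where 3.46% (1#) and 3.75% (2#) of all genes passed (0.0063% in each without the block). Between the clones MSX2 differed by 0.50 in favour of 2# (95% interval −1.58 to 2.58, and −0.20 to 1.20 with the block), and MSX1 by 0.10 (−0.78 to 0.98). DLX1 was lower in 2# than in 1# by 0.18 (−0.73 to 0.36), and DLX2 differed by 0.07 (−0.46 to 0.60). None of the 4 passed the test, and 0 of 15875 genes did, with or without the block. An unadjusted limma p under 0.05 was found for 227 genes (1.43%), and for 530 (3.34%) with the block. Both shares are under what this threshold alone would let through. The intervals for MSX2 leave room for a large difference between the clones in either fit.

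Both MSX genes were lower in replicate 2 than in replicate 1, in WT and in both clones. The labels tie replicates 1 and 2 to different set letters without saying what they stand for. On the log2 scale, replicate 2 minus replicate 1 was −0.93 in WT, −1.52 in 1# and −2.09 in 2# for MSX2, and −0.30, −0.42 and −0.94 for MSX1. In a fit with WT, 1# and 2# as groups, MSX2 fell by 1.51 (standard error 0.23, limma adjusted p = 0.0104) and MSX1 fell by 0.55 (standard error 0.14, adjusted p = 0.0397). This is a comparison in which 28.0% of all genes passed, 15.5% as lower in replicate 2. Both calls were lost without 1# replicate 1 or 1# replicate 2 (adjusted p of about 0.06 for MSX2 and 0.114 for MSX1) and with no filter. MSX1 alone lost its call without 2# replicate 1 or 2# replicate 2. DLX1 (−0.13, adjusted p = 0.585) and DLX2 (−0.00, adjusted p = 0.995) did not pass. MSX1, MSX2 and DLX1 were lower in replicate 2 in WT and in both clones, as were 33.8% of all genes tested. DLX4 and DLX6, under the filter on low values, were also lower there, on few fragments. DLX4 had about 6 fragments in both WT libraries. In replicates 1 and 2 it had about 10 and 2 in 1#, and about 14 and 8 in 2#. DLX6 had about 5 and 0 in WT, 1 and 0 in 1#, and 5 and 0 in 2#.

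**Figure D3:**
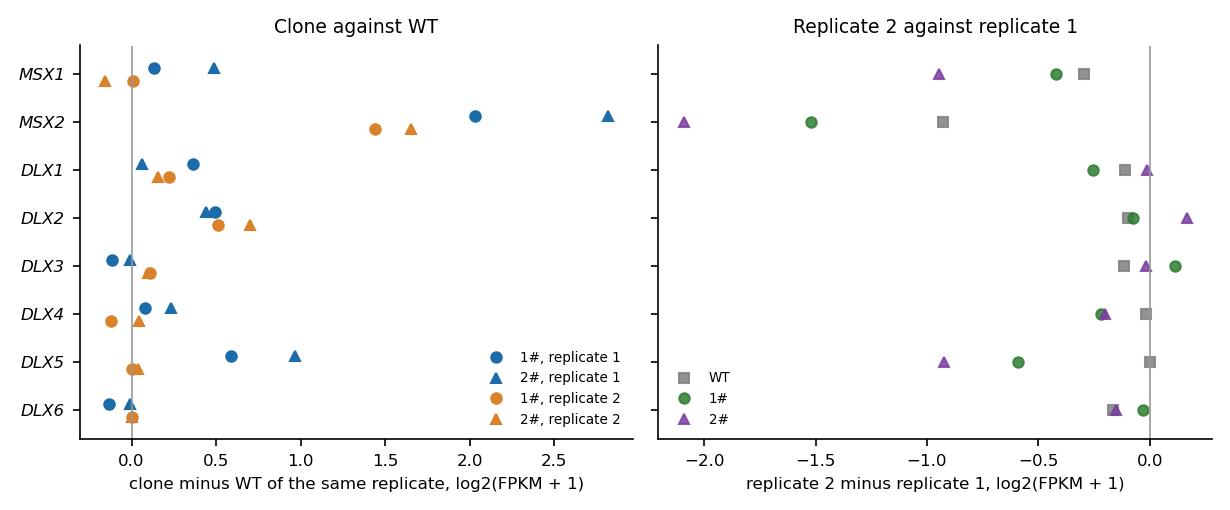
Left, the difference of each clone library from WT of the same number; right, the difference of replicate 2 from replicate 1 within WT, 1# and 2#; both axes are differences of log2(FPKM + 1). MSX2 lies between 1.44 and 2.82 on the left and between −2.09 and −0.93 on the right, and DLX2 is the other gene with all 4 points on the left above 0.4.

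Whether the difference from WT depends on the replicate number was asked with an interaction term. For MSX2 the term, replicate 2 minus replicate 1, was −0.88 on the log2 scale (95% interval −2.20 to 0.45, limma adjusted p = 0.552). MSX1 gave −0.39 (adjusted p = 0.603), DLX1 −0.03 (0.982) and DLX2 0.14 (0.878). None of these 4 terms passed, where 0.0189% of all genes did. Against WT of the same number, MSX2, DLX1 and DLX2 were higher in 4 of 4 comparisons, MSX1 and DLX4 in 3 of 4, DLX5 in 3 of 4 with the other at 0 in both, DLX3 in 2 and DLX6 in 0, and 23.6% of all genes tested were higher in 4 of 4.

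Some markers of other cell types were highest in the same 2 libraries as MSX2 and DLX5. In a list of 14 trophoblast and amnion genes, the summed level was 83.1 and 60.7 FPKM in WT, 132 and 70.5 FPKM in 1#, and 192 and 73.0 FPKM in 2#, so replicate 1 of each clone was highest here too. HAND1, a transcription factor of heart and placenta, had 2.32 and 1.14 FPKM in WT, 14.1 and 9.61 FPKM in 1#, and 22.5 and 10.5 FPKM in 2# (limma adjusted p = 0.0381, and 0.00166 with the block). It is the 1 of 8 tested list genes past the threshold, against 1.29% of all genes without the block and 9.92% with it. Without the block its call was kept in 1 of 6 fits that left out 1 library, that without 2# replicate 1. With the block it was kept in 6 of 6. The labelled growth protocol names HAND1 overexpression, and whether the HAND1 level reflects a cell type was not tested. HAND2, of the early mesoderm list, was also higher (1.45, limma adjusted p = 0.0208). Of the 14 genes 6 had all clone libraries above both WT libraries, against 12.1% of all genes tested. The 14 include genes under the filter on low values, which that share leaves out. Of the 8 tested 5 had a fitted difference above 0, against 51.3% of all genes tested. The other 3 were GATA3 (−0.03), the most abundant of the list, TFAP2A (−0.24) and ISL1 (−0.15), and TFAP2A was about as high in WT replicate 1 (8.14 FPKM) as in 2# replicate 1 (7.98 FPKM). KRT7 and CDX2, among the 5 above 0, passed the filter on low values through their clone libraries. The count of 5 therefore gives no support to a shared direction. CDX2 had 0.153 and 0.186 FPKM in WT. KRT7, an epithelial keratin, was listed at 0 in both WT libraries and stood at 1.38 and 0.223 FPKM in 1# and 2.42 and 0.264 FPKM in 2#. GABRP, an amnion-enriched receptor subunit, reached 4.01 and 18.4 FPKM in replicate 1 of 1# and 2# against 0.647 to 0.896 FPKM elsewhere. The part of such cells in the MSX2 and DLX5 values was not tested. KRT7, GABRP, TFAP2A and ISL1 were picked from the list after their values were seen.

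Summed levels of the endothelial, hematopoietic and mesenchymal lists did not overlap between WT and the clones. Of all genes tested, 0.321% passed as lower and 0.964% as higher without the block, and 3.77% and 6.15% with it. The 10 endothelial genes summed to 2460 and 2603 FPKM in WT and to 1598 to 1972 FPKM in the clones, with CDH5 and TIE1 lower in the test (7 of 10 lower with the block). The 10 hematopoietic genes summed to 116 and 129 FPKM in WT and 262 to 406 FPKM in the clones, with GYPB and KLF1 higher in the test, and HBE1, embryonic globin, was the most abundant. HBE1 was highest in the same 2 libraries as MSX2, with 125 and 164 FPKM in replicate 1 of 1# and 2# against 24.4 to 36.6 FPKM elsewhere. The 10 mesenchymal genes summed to 151 and 198 FPKM in WT and 379 to 441 FPKM in the clones, with COL1A1 and TAGLN higher. COL1A1, the most abundant, stood at 27.7 and 55.9 FPKM in WT and at 193 to 206 FPKM in the clones. TAGLN stood at 15.8 and 33.1 FPKM in WT and at 88.3 to 94.2 FPKM in the clones. Of the 9 tested 7 had a fitted difference above 0 (51.3% of all genes tested did), and COL3A1 (−0.54) and PRRX1 (−0.26) lay below it. The neural crest and osteoblast list, tissues in which MSX and DLX genes are best known, summed to 173 to 314 FPKM, mostly ETS1, with 1 of 5 tested genes higher (ALPL, a phosphatase of bone and stem cells) and, with the block, ETS1 lower (−0.27, limma adjusted p = 0.0366). Of the early mesoderm list, led by APLNR, 1 of 6 tested was higher (HAND2) and 1 lower (APLNR), and of the pluripotency list, led by LIN28A, 0 of 6 passed (LIN28A with the block). APLNR stood at 329 and 391 FPKM in WT and at 77.1 to 93.8 FPKM in the clones. Without the block, APLNR kept its call in 6 of 6 fits that left out 1 library, GYPB in 4, COL1A1 in 3, TAGLN in 2, ALPL and HAND2 in 1, and CDH5, TIE1 and KLF1 in 0. With the block these 9 genes kept theirs in 6 of 6, apart from CDH5, which lost it without WT replicate 1. The blocked call of ETS1 was kept in 0 of 6 such fits and that of LIN28A in 3. The part of these markers in the levels of the members was not tested.

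**Figure D4:**
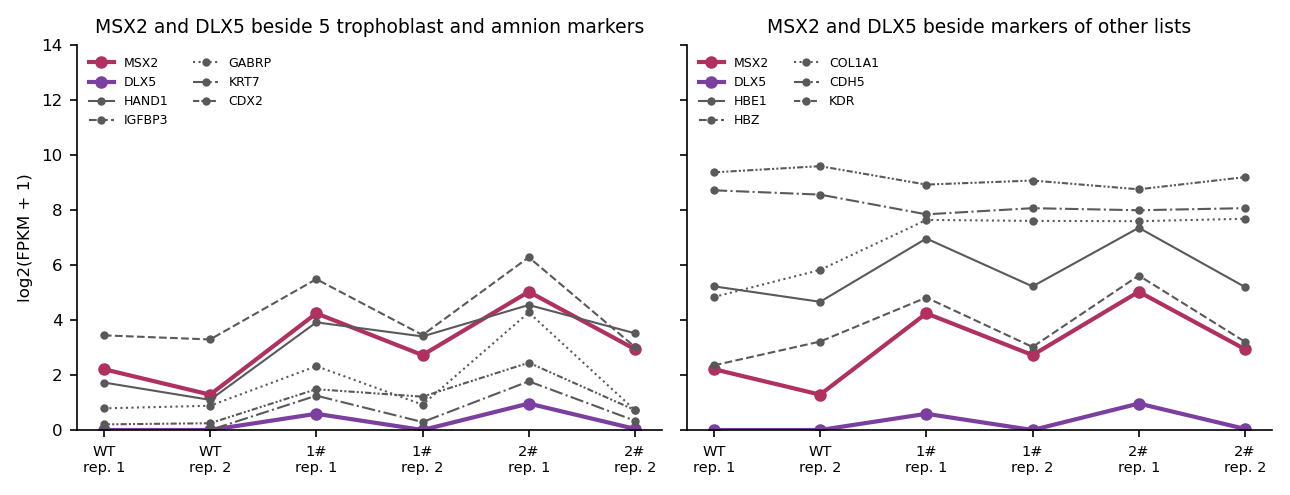
log2(FPKM + 1) of MSX2 (red) and DLX5 (purple) in the 6 libraries, beside 5 trophoblast and amnion markers (left) and 5 markers of the hematopoietic, mesenchymal and endothelial lists (right); lines only join the points of 1 gene. MSX2, DLX5, IGFBP3, GABRP, KRT7, HBE1 and HBZ have their highest 2 values in replicate 1 of 1# and 2#, while COL1A1 is about equally high in all 4 clone libraries. The 5 markers on the left are the tested genes of their list with a fitted difference above 0. GATA3, TFAP2A and ISL1, which lay below 0, are not drawn.

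The wider NKL class, to which MSX and DLX genes belong, was mostly near 0. Of 37 relatives in the table, 28 stayed under 1 FPKM in every library and 7 entered the test, with a median difference of 0.14 (0.01 over all genes tested). EMX1, a cortical regulator, stood at 5.16 and 9.80 FPKM in WT. It rose to 25.1 and 39.6 FPKM in 1# and 24.1 and 43.5 FPKM in 2#, a log2 difference of 2.01. The standard error was 0.33, and the limma adjusted p was 0.0497 without and 0.000495 with the block. VAX1, a ventral forebrain and eye regulator, fell from 4.85 and 3.43 FPKM to between 0.807 and 1.10 FPKM, by 1.36 on the log2 scale (standard error 0.19; the adjusted p was 0.0318 without and 0.00716 with the block). For both genes all clone libraries lay on 1 side of WT. With the block HLX, a regulator of mesenchyme and blood, also rose (1.53, adjusted p = 0.00132), as did NKX2-5, a cardiac regulator (0.88, adjusted p = 0.00406). HHEX, of endothelium and early blood, was the most abundant at 72.3 to 123 FPKM and gave −0.22 (adjusted p = 0.831). Without the block, neither EMX1 nor VAX1 kept its call when any 1 library was left out. With the block, EMX1, HLX and NKX2-5 kept theirs in 6 of 6 such fits and VAX1 in 5, all but that without WT replicate 1.

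**Figure D5:**
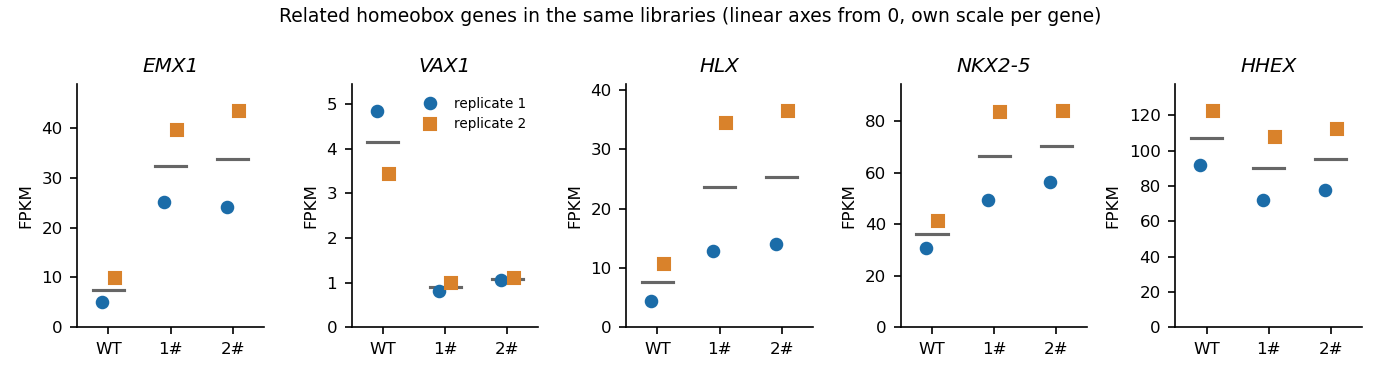
FPKM of 5 related homeobox genes in WT, 1# and 2#, with circles for replicate 1, squares for replicate 2 and a line at the mean of the pair; axes are linear, start at 0 and have their own scale per gene. EMX1 lies at 24.1 to 43.5 FPKM in the clones against 5.16 and 9.80 FPKM in WT, and VAX1 lies at 0.807 to 1.10 FPKM against 4.85 and 3.43 FPKM.

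BMP and TGFβ signals act upstream of MSX and DLX genes. Of 27 listed genes 23 were tested, 18 with a fitted difference above 0, with a median of 0.33. Over all genes tested 51.3% lay above 0, with a median of 0.01. BMP6, a ligand, was the 1 gene past the threshold, rising from 13.1 and 9.78 FPKM in WT to between 32.8 and 40.9 FPKM in the clones, by 1.57 on the log2 scale (standard error 0.16, limma adjusted p = 0.0152, and 0.00297 with the block). When the replicate number was blocked, where 6.15% of all genes tested were higher and 3.77% lower, 8 genes of the list were higher and 0 lower. Of these SMAD7, an inhibitor of TGFβ receptors (0.83, adjusted p = 0.0237), BMP2, a ligand (0.76, 0.0282), NOG, an extracellular BMP antagonist (0.72, 0.0408) and ENG, a TGFβ co-receptor (0.70, 0.00973) had the next largest differences. Without the block the adjusted p of these 4 were 0.0961, 0.59, 0.651 and 0.0523. BMP6 kept its blocked call in 6 of 6 fits that left out 1 library, ENG in 4 (lost without either WT replicate), SMAD7 in 2 (kept without WT replicate 1 or 1# replicate 1), and BMP2 and NOG in 0. Without the block BMP6 kept its call in 1 of 6, that without 2# replicate 1. Replicate 2 minus replicate 1 was −1.51 for BMP4, −0.95 for BMP2 and −1.01 for NOG on the log2 scale (adjusted p of 0.00325, 0.0129 and 0.0126), with SMAD3 also lower (−0.79, 0.0139). TGFB1 (0.42, 0.021) and SMAD4 (0.41, 0.0397) were higher in replicate 2, and the median of the list was 0.02.

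Of 13 tested genes for proteins known to bind MSX or DLX proteins, 6 had a fitted difference above 0 and 7 below, with a median of −0.02, and 0 passed the test in limma. With the block TLE1, a Groucho co-repressor that MSX1 recruits, was lower by a log2 difference of −0.78 (adjusted p = 0.0149, against 0.477 without the block), at 21.4 and 12.3 FPKM in WT and 6.13 to 13.8 FPKM in the clones. That call was lost without either WT replicate. The ranges overlap across replicates but not within a replicate number.

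The genes that lie beside the members in the genome were examined to see whether a change extended beyond them. Of 11 neighbours tested, ITGA3, an integrin gene near DLX3 and DLX4, rose from 10.3 and 12.7 FPKM to between 33.4 and 43.2 FPKM (log2 difference 1.63, limma adjusted p = 0.015, and 0.00209 with the block). ITGA6, an integrin gene near DLX1 and DLX2, was at 5.80 and 3.35 FPKM in WT and 9.23 to 12.8 FPKM in the clones (1.18, adjusted p = 0.081, and 0.00444 with the block). SFXN1, on chromosome 5 with MSX2, gave 0.35 (adjusted p = 0.313), and the other 8 did not pass either. The median over the 11 was 0.04. Without the block the ITGA3 call was lost without WT replicate 1, 1# replicate 1 or 1# replicate 2, and with it both integrin calls held in 6 of 6. Of the RNA genes named after members, DLX6-AS1 reached at most 0.0443 FPKM and DLX2-AS1 was listed at 0 in all 6 libraries.

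Promoters of MSX1, MSX2, DLX1, DLX2 and DLX6 were found in the RefSeq table (GRCh38.p14, 250 bases before to 50 after the start of each gene). They were searched for TAATTA, a core that MSX and DLX homeodomains bind, and for TAATTG, each on both strands. MSX2 alone held a match, 1 copy of TAATTA that starts 197 bases before the start site, shown in capitals below within chr5:174724373-174724402 on the plus strand.
MSX2 promoter window: tgactgctcctgTAATTAactcctaattta
TAATTA occurs in 4.84% and TAATTG in 7.38% of all 35116 promoters of the table. The match is a description of the sequence only.

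For each of the 4 members past the filter, the genes most like it were ranked by Pearson r of log2(FPKM + 1) over the 6 libraries, among 2404 genes that averaged 1 FPKM or more and had a standard deviation of 0.5 or more. These libraries share a genotype or a replicate number, so high values are common. MSX2 was most like LAMA1 (laminin α1), with r = 0.9987, TPM1 (tropomyosin, 0.99) and FAXDC2 (0.99). LAMA1 had 2.61 and 1.53 FPKM in WT, 6.34 and 3.22 FPKM in 1#, and 9.46 and 3.82 FPKM in 2#, the same order of libraries as MSX2. MSX1 was most like PLS1 (an actin bundler, 0.99), ALS2CL (0.98) and C10orf10 (0.98), DLX2 most like BMP6 (0.99), HIST1H2BD (0.99) and AL713998.1 (0.99), and DLX1 most like TMEM9B-AS1 (0.97), AL355512.1 (0.92) and AC079250.1 (0.92). Over r = 0.95 lay 70 genes for MSX2, 69 for DLX2, 46 for MSX1 and 1 for DLX1.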

How the data were processed

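Per the labels and the table's last line, which holds column headings, the authors deposited FPKM from Cufflinks after TopHat alignment, 1 row per gene and 1 column per library, with replicates not pooled. The submitters' processing notes also name BWA, Bowtie and RSEM and the build hg19, and versions and the use of strand are not given in the sources used here. Titles number the clones differently from the columns, whose names 1# and 2# were used. Values stood in 58364 rows, and 1 row held none.

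The deposited FPKM were taken as log2(FPKM + 1), and genes that averaged 0.5 FPKM or more (15875 of 56595 symbols, the row with the highest mean for a repeated symbol) were fitted with limma 3.58.1 (R 4.3.3; empirical Bayes with trend), with Benjamini-Hochberg adjustment over all genes tested and a threshold of 0.05. The fits were checked on simulated data. The numbers pair the libraries: differences between replicates correlated at 0.509 (WT and 1#), 0.54 (WT and 2#) and 0.638 (1# and 2#) over genes, so blocked values stand beside results. Alternatives were the block, a pseudocount of 0.1, no filter, rescaled libraries, 3 groups, each clone alone and leaving out each library; the block combined with these was added after the data were seen. Exact permutation tests were two-sided.

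The members and gene lists were chosen with earlier results of these data known. Named are all members, the listed genes that passed with or without the block (at most 5 per list, by size), the leading or label-checking gene of each marker list, and the 3 genes most like each tested member; 1 listed marker is not reported here. Named outside these rules were genes such as KRT7, GABRP, TFAP2A, ISL1, IGFBP3, HBZ, COL3A1, PRRX1, SMAD3 and SMAD4. Fragments were estimated from what 1 fragment is worth in genes with 1 transcript, where 87.3% to 90.5% of values of 1 to 3 fragments lay within 0.15 of a whole number. Sequences come from GENCODE 29 transcripts and RefSeq promoters (GRCh38) and the study's guide list, and no coordinates of the files' build were used.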

Additional observations from a re-analysis of the deposited data

Results flagged for a closer look

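DLX3 in the libraries labelled MSX2-/- had 1 value that stood apart, 0.0770 FPKM in 1# replicate 1 against 0.151 to 0.165 FPKM in the other 3. The gap to the nearest value was 0.843 of the range of the group, above Dixon's 95% critical value for 4 samples. Chance flags about 1 in 20 groups, and 8 groups were examined. These values are about 4 and 8 fragments.

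DLX3 also moved in opposite directions by replicate number. The clones were below WT in replicate 1 (a mean of −0.0625 on the log2 scale) and above it in replicate 2 (a mean of 0.1032), and in the fit without the filter on low values the difference between these effects was 0.17 (95% interval −0.11 to 0.44, limma adjusted p = 0.544), which did not pass.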

How the results depend on the processing

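With the replicate block the difference of MSX2 was 1.99 and past the threshold, as it was with the block and 3 groups (1.99), a pseudocount of 0.1 (2.35) or rescaled libraries (1.97). Leaving out 1 library gave 1.52 to 2.45 for MSX2, and −0.0759 to 0.3114 for MSX1, whose sign turned. With the block 1 member passed in each clone. Of the members, 0 passed between replicates with no filter and 0 to 2 when 1 library was left out. For DLX2 between replicates the sign turned without either WT replicate (0.0453) and without 1# replicate 2 (0.0353), with −0.0859 as the lowest value when 1 library was left out, and for DLX1 the interaction turned at a pseudocount of 0.1 (0.0102). The count of genes higher in MSX2-/- (153) was 977 with the block, 67 with no filter, 4 with 3 groups, 0 with either clone alone and 14 to 59 with 1 library left out, and that of genes lower (51) was 598, 58, 2, 0 (1#) or 1 (2#) and 5 to 28. DLX2 fell under the filter, and so has no value, with each clone alone and without 1# replicate 1 or 2# replicate 2. The block changed no other call of a member. The cause of these changes was not tested. Values under 1 FPKM rest on few fragments and do not show small changes of the DLX genes.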
